A study of Homo sapiens with 8 samples.

Results

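HSC2 is a human oral squamous cell carcinoma (OSCC) line, and its 2 arrays, out of 8 in the whole series, were taken by their cell line label. The HSC2 miR-375 array held RNA of cells transfected with a miR-375-3p mimic, and the HSC2 miR-NT array RNA of cells transfected with a non-targeting mimic. The reference was the same pair of arrays in each of the OSCC lines SAS-L1, HSC3 and Ca9-22, 6 arrays in all, so that every line contributed 1 array per mimic. In all groups the cells were reverse-transfected with 20 nM of the mimic in Lipofectamine RNAiMAX and harvested at 48 h, and total RNA was hybridized to Affymetrix Human Genome U219 arrays. The comparisons ask in which genes HSC2 stood apart from the other lines, and how its transcripts differed between the mimic and miR-NT. The methods state that in vitro experiments were repeated, but each line and mimic has 1 array here, with no label that ties it to several cultures, and a difference within HSC2 therefore has no error of its own.

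MicroRNAs guide a silencing complex to messenger RNAs, mostly through pairing of their seed, bases 2 to 8, with sites in the transcript, and the paired transcripts are degraded or translated less. miR-375 is abundant in pancreatic islets and several normal epithelia and is often low in squamous carcinomas of the head and neck. The mature strand is shown because all mimic arrays share it, in RefSeq on GRCh38.p14 at chr2:219001648-219001669 on the minus strand, with the seed in capitals:
hsa-miR-375-3p: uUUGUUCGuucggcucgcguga
Squamous cells of the oral mucosa express basal keratins, desmosomal cadherins and hemidesmosome components. KRT7, KRT8, KRT18 and KRT19 are grouped here as simple keratins and are variably expressed in carcinomas.

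Values are log2 signals after robust multi-array average (RMA) processing, and each of 18239 genes is represented by its brightest probe set. The array medians lay between 4.96 and 5.00, and the quartiles of all probe sets at 3.87 and 6.82, so that a signal near or below 3.87 is close to the dim end of the array. The HSC2 arrays correlated with each other at r = 0.988 and with the arrays of the other lines at r = 0.940 to 0.962 (Pearson, across genes, which are not independent replicates). Of 17 listed squamous markers 13 were measured, and 12 of these were above 6.82 on both HSC2 arrays, among them KRT5, KRT14, DSG3, PKP1, CDH1 and SERPINB5. EPCAM of this list was below all 6 other arrays in HSC2 with all 3 of its probe sets. Of 9 melanocyte and neural markers 1 was above 6.82 on both HSC2 arrays. Their medians were 5.32 to 5.43 on the HSC2 arrays and 5.36 to 5.41 on the others. KRT6A, KRT17, TP63 and COL17A1 were not analysed here. None of 10 fibroblast, 11 immune and 8 endothelial markers exceeded 6.82 on both HSC2 arrays, and their medians on the HSC2 arrays were 3.90 to 4.04, 3.82 to 4.03 and 4.49 to 4.57. The same medians on the other 6 arrays were 3.84 to 4.05, 3.82 to 4.05 and 4.41 to 4.53.

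HSC2 stood apart from the other lines in a set of genes that both of its arrays showed. Both HSC2 arrays were above all 6 others for 1677 genes (9.19% of all genes) and below all 6 for 1320 genes (7.24%). The gap exceeded 2-fold for 84 genes above (0.461%) and 37 genes below (0.203%). The count was 85 above and 74 below for SAS-L1, 51 and 47 for HSC3, and 67 and 87 for Ca9-22. With SAS-L1, HSC3 or Ca9-22 left out, HSC2 was apart from the remaining arrays by more than 2-fold for 117, 188 and 160 genes above and 63, 80 and 97 genes below. With the 4 lines as the units of a limma fit, 0 genes (0%) passed in either direction after Benjamini-Hochberg adjustment, the smallest adjusted p being 0.237. At an unadjusted p under 0.05 this fit had 584 genes above (3.2%) and 417 below (2.29%). A fit on the 8 arrays, with the mimic as a block and the line as a random block, called 22 genes above (0.121%) and 8 below (0.0439%), and with the 8 arrays taken as independent it called 229 above (1.26%) and 160 below (0.877%). The last fit treats both arrays of a line as separate samples of it, and its p-values are too small for a statement about lines. The random-block fit took 1 within-line correlation, 0.648, for all genes and still counts arrays, so that its p-values may be too small as well. Genes named below for their gap were picked on the same arrays, and passing this fit is no separate support for them. HSC2 is 1 line, and its own spread was taken to equal that of the other lines.

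The widest gap was at CALB1, which encodes the calcium-binding protein calbindin and is best known from neurons and kidney tubules. CALB1 was 9.31 on the HSC2 miR-375 array and 10.43 on the HSC2 miR-NT array, against 3.67 to 4.07 on the 6 arrays of the other lines. HSC2 was 63.8-fold above the mean of the other lines (difference 6.0 on the log2 scale, SE 0.19, limma adjusted p = 0.237 with lines as units and 0.009 with the line as a random block). CDH11, a mesenchymal cadherin, was 8.79 and 9.43 in HSC2 and 3.23 to 3.89 in the other lines, a 48.1-fold difference (5.59, SE 0.30, limma adjusted p = 0.243 with lines as units and 0.003 with the line as a random block). It was above the other lines with all 6 of its probe sets. In both genes the other lines lay near the dim end of the array, so that the fold may be larger than given.

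Among the other genes with the widest gap above, MAGEC2, a cancer-testis antigen, was 9.34 on the mimic array and 9.69 on the miR-NT array of HSC2, and 5.55 to 5.89 on the other 6. S100P, a calcium-binding protein of the S100 family, was 9.40 and 8.71 in HSC2 and 5.49 to 5.90 in the other lines. Both passed in the random-block fit (limma adjusted p = 0.002 for MAGEC2 and 0.017 for S100P), but not with lines as units (0.237 and 0.243). SULT1E1, which sulfates estrogens, was 6.77 and 6.49 in HSC2 and 2.88 to 3.19 elsewhere. PI3, the elastase inhibitor elafin of stratified epithelia, was 7.31 and 6.38 in HSC2 against 3.78 to 3.99. HTRA1, a secreted serine protease, was 7.52 and 7.62 in HSC2 against 4.49 to 5.39. FAM43A, with 9.85 and 9.24 in HSC2 and 4.16 to 6.95 elsewhere, spread the most among the other lines. CEP15, LINC02899, ANXA6 and IRX1 completed the 12 genes of widest gap, with 5.74 to 7.92 in HSC2 and 3.09 to 4.05 in the other lines.

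In the opposite direction the widest gap was at KRT19, keratin 19, which is grouped here with the simple keratins. KRT19 was 4.18 on the HSC2 miR-375 array and 3.84 on the HSC2 miR-NT array, against 9.41 to 10.27 on the 6 others. HSC2 differed from the mean of the other lines by -5.87 on the log2 scale (SE 0.23, 58.4-fold, limma adjusted p = 0.237 with lines as units and 0.007 with the line as a random block). Only HSC2 among the 4 lines had KRT19 below the median of all probe sets, 4.98. LY6K, a GPI-anchored cancer-testis protein, was 5.80 and 5.15 in HSC2 and 10.13 to 11.53 elsewhere. P4HA2, a subunit of the collagen prolyl hydroxylase, was 5.30 and 5.13 in HSC2 and 8.64 to 9.42 elsewhere. LY6K and P4HA2 also passed in the random-block fit (adjusted p = 0.017 and 0.002), but not with lines as units (adjusted p = 0.541 and 0.261).

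HLA-B, a classical MHC class I heavy chain, was 7.80 and 8.09 in HSC2 against 10.37 to 11.61 in the other lines. Of its 3 probe sets 2 were below on both HSC2 arrays. HLA-B differs in sequence between people and resembles the other class I genes, so that an allele's match to the probes and its transcript level cannot be told apart here. AKAP12, a scaffold of protein kinase A, was 4.95 and 4.45 in HSC2 and 7.19 to 10.39 elsewhere. TPM2, a tropomyosin of the actin cytoskeleton, was 5.05 and 5.48 against 7.67 to 10.25. GPRC5A, a retinoic acid-induced receptor, was 5.03 and 4.90 against 7.33 to 9.23. SH3YL1, ZNF22, FBXO32, IPO11 and GOLPH3L were the other genes of widest gap below, with HSC2 at 3.59 to 5.90 and the other lines at 6.50 to 9.39.

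**Figure D1:**
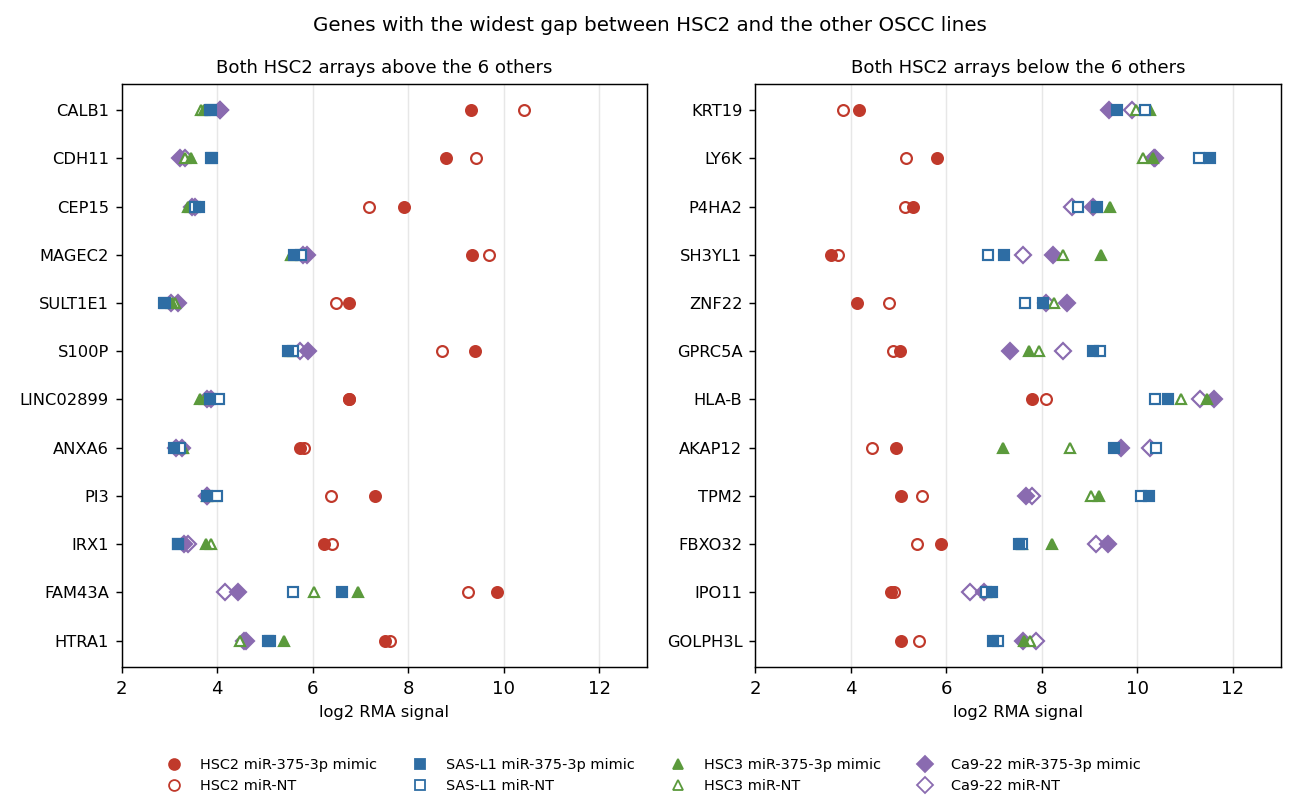
Log2 RMA signal (x axis) of the 12 genes with both HSC2 arrays above the 6 others by the widest gap (left) and the 12 below (right). Each symbol is 1 array, filled for the miR-375-3p mimic and open for miR-NT, and no HSC2 symbol overlaps those of another line, as for KRT19 with 4.18 and 3.84 in HSC2 against 9.41 to 10.27.

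Interferon-stimulated genes, the antiviral program that interferon switches on, were higher in HSC2 than in the other lines for many members of the list. Of 33 measured genes 15 were above all 6 other arrays on both HSC2 arrays and 0 below, where 9.19% and 7.24% of all genes were. The median difference between HSC2 and the other lines was 0.66, against 0.01 over all genes. None of the 33 passed the limma fit on lines. An unadjusted p under 0.05 was seen for 10, all above, beside 3.2% of all genes above and 2.29% below. Members and lists were chosen with earlier results of these data known, so the counts describe the list.

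BST2, the virion-tethering protein tetherin, was 6.66 on the HSC2 mimic array and 7.85 on the HSC2 miR-NT array, against 3.99 to 4.79 in the other lines. IFIT1, which binds viral RNA, was 8.73 and 9.01 in HSC2 and 5.38 to 7.29 in the other lines. IFI6 was 9.77 and 10.08 against 6.10 to 8.41, and ISG15, a ubiquitin-like modifier, 8.99 and 9.0 against 5.37 to 7.85. IRF9, the DNA-binding subunit of the interferon-activated complex ISGF3, was 9.56 and 9.27 against 6.31 to 8.28, with all 4 probe sets above. RIGI, a sensor of double-stranded RNA, was 7.27 and 7.79 against 5.64 to 6.39. For IFITM1 the groups were separated by little, with 9.97 and 9.91 in HSC2 and 4.94 to 9.78 in the other lines, the highest being HSC3 with the mimic. IFIT2, IFIT3 and IFIH1 overlapped with the other lines.

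On the miR-NT arrays alone HSC2 was above the 3 other lines for 27 of 33 members, where 29.5% of all genes were above. On the mimic arrays alone it was above them for 15 of 33, where 22.6% of all genes were.

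ISGF3 binds an interferon-stimulated response element, whose core was searched as GAAANNGAAA on both strands in RefSeq promoters from 250 bases before to 50 bases after the start of transcription (GRCh38.p14). The core was present in 3.57% of 35116 promoters and in those of 20 of the 28 list members with a promoter entry. A member counted if any of its promoters held the core, whereas the share is per promoter, so that they are not directly comparable. The core was in 7 of 12 members above all 6 other arrays and in 13 of 16 members that were not. The members above all other arrays that hold it are shown on the gene's strand with 10 bases on either side, the core in capitals (as its reverse complement in IFIT1):
BST2, chr19:17405741-17405770, minus strand: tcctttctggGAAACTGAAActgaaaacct
IFIT1, chr10:89392497-89392526, plus strand: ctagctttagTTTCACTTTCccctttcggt
IFI6, chr1:27672329-27672358, minus strand: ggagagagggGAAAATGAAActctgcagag
ISG15, chr1:1013374-1013403, plus strand: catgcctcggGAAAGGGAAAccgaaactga
IFI44L, chr1:78620274-78620303, plus strand: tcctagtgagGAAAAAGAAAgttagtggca
MX1, chr21:41420559-41420588, plus strand: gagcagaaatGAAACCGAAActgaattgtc
IFITM1, chr11:313990-314019, plus strand: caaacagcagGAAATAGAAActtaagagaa

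Chaperones of the endoplasmic reticulum (ER) fold secreted and membrane proteins, and the list of ER chaperones used here also holds XBP1 and HERPUD1. Most members of this list were higher in HSC2 than in the other lines. Both HSC2 arrays were above all 6 others for 12 of 19 genes and below for 0 of 19, beside 9.19% and 7.24% of all genes. The median difference was 0.84. In the limma fit on lines 8 members had an unadjusted p under 0.05, all above, beside 3.2% of all genes above and 2.29% below. CALR, the lectin chaperone calreticulin, was 8.70 on the mimic array and 8.71 on the miR-NT array of HSC2, and 6.98 to 7.40 on the other 6 (difference 1.5, SE 0.15, limma adjusted p = 0.541 with lines as units and 0.034 with the line as a random block). CRELD2 was 10.57 and 10.22 in HSC2 against 8.34 to 9.18 in the other lines. XBP1, the transcription factor of the unfolded protein response, was 10.19 and 9.91 against 7.52 to 9.29, and HYOU1, an HSP70-like chaperone, 9.88 and 9.81 against 8.02 to 9.02. HSPA5 (BiP), at 12 and 11.99 in HSC2 and 11.17 to 11.79 elsewhere, was apart by little.

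The endoplasmic reticulum stress element, bound by ATF6 with NF-Y, was searched as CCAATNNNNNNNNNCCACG on both strands in the same promoters. It was present in 0.0769% of 35116 promoters, 27 in number, and in those of 7 of the 18 members with a promoter entry. Here too the share is per promoter, and a member counted if any of its promoters held the element. The element was in 6 of 12 members above all other arrays and in 1 of 6 that were not. These 6 are shown on the gene's strand with the element in capitals (as its reverse complement in CALR and CRELD2):
CALR, chr19:12938374-12938412, plus strand: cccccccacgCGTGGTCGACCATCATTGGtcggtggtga
CRELD2, chr22:49918544-49918582, plus strand: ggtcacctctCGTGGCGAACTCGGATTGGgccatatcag
XBP1, chr22:28800593-28800631, minus strand: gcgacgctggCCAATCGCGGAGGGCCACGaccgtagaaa
PDIA6, chr2:10812843-10812881, minus strand: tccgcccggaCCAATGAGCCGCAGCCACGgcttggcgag
HSP90B1, chr12:103930206-103930244, plus strand: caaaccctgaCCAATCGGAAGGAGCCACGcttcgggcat
HSPA5, chr9:125241381-125241419, minus strand: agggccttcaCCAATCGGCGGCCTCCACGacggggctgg
A match describes letters in the window and was not tested as a bound site in these cells.

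Genes of TGF-beta and BMP signaling were above all 6 other arrays for 9 of 22 members and below for 0 of 22, beside 9.19% and 7.24% of all genes, with a median difference of 0.59. ID1, ID2 and ID3 are inhibitors of basic helix-loop-helix factors that BMP signaling induces. ID2 was 9.30 on the mimic array and 7.63 on the miR-NT array of HSC2, against 3.26 to 6.24 in the other lines. ID3 was 9.82 and 8.89 in HSC2 against 5.20 to 7.95 elsewhere. ID1 was 11.90 and 11.25 in HSC2 and 7.23 to 10.92 elsewhere. The ligand BMP2 was 7.45 and 7.16 against 4.23 to 6.91, and the co-receptor TGFBR3 7.49 and 7.36 against 5.56 to 6.81. For ID1, ID2 and ID3 the other lines spread over more than the gap to HSC2.

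Genes of cholesterol synthesis and uptake were above all 6 others for 7 of 18 members and below for 0 of 18, beside 9.19% and 7.24% of all genes, with a median difference of 0.51. HMGCS1, which makes HMG-CoA, was 10.67 and 11.37 in HSC2 against 8.14 to 9.57. SREBF2, the transcription factor that controls the pathway, was 8.41 and 8.30 against 6.83 to 7.41. INSIG1, which retains that factor in the endoplasmic reticulum, was 9.46 and 10.01 against 7.32 to 8.55.

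Of 6 simple keratins HSC2 was below all 6 other arrays for 2, KRT19 and KRT8, and above for 0, beside 7.24% of all genes below and 9.19% above, the shares against which the counts of the next lists stand too. KRT8 was 4.49 and 4.76 in HSC2 against 5.24 to 10.78 elsewhere, with all 8 of its probe sets below. Its partner KRT18 was 9.93 and 9.88 in HSC2, within the 9.36 to 11.76 of the other lines. The basal keratin KRT14 was 9.77 on the mimic array and 11.28 on the miR-NT array of HSC2 and 8.12 and 9.74 on the HSC3 arrays, against 4.05 to 4.61 in SAS-L1 and Ca9-22, so that HSC2 was above all others by 0.03. KRT5, at 10.30 and 11.61, overlapped with the other lines. Of 14 genes of MHC class I presentation HSC2 was below all others for 3 (HLA-B, HLA-C and the immunoproteasome subunit PSMB8) and above for 1. HLA-C was 8.87 and 8.50 against 8.94 to 10.66, apart from the nearest array by 0.07. Of 25 targets of YAP and TEAD 4 were below and 1 above, beside 7.24% and 9.19% of all genes. CCN1 of this list, a matricellular protein, was 8.22 and 8.25 against 9.09 to 11.65. Among 13 reference genes HPRT1 and RPL13A were below, at 9.88 and 9.74 against 10.54 to 11.24, and at 12.10 and 11.93 against 12.32 to 12.50.

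**Figure D2:**
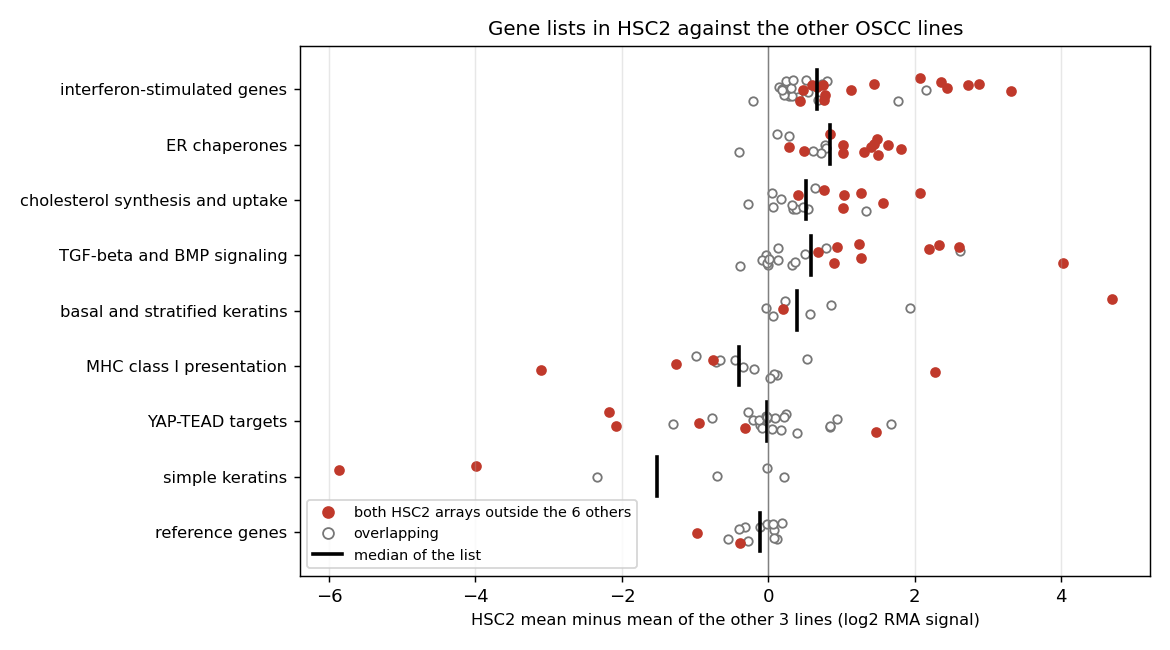
Difference between the HSC2 mean and the mean of the other 3 lines (x axis, log2) for every measured member of 9 gene lists. Filled points are genes with both HSC2 arrays outside the range of the 6 others and bars are list medians, at 0.84 for ER chaperones and 0.66 for interferon-stimulated genes.

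With the mimic, 213 genes were more than 2-fold lower in HSC2 (1.17% of all genes) and 74 more than 2-fold higher (0.406%), each read from 1 array per side with no test. In all, 46.1% of genes were lower and 53.9% higher. More than 2-fold lower and higher genes numbered 107 and 67 in SAS-L1, 402 and 250 in HSC3, and 369 and 171 in Ca9-22. The SD of the difference over all genes was 0.32 in HSC2, between 0.27 in SAS-L1 and 0.38 in Ca9-22, with 0.40 in HSC3.

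The genes lowest with the mimic in HSC2 were low with it in every line. PSIP1, a chromatin-bound transcriptional coactivator, was 5.40 with the mimic and 8.67 with miR-NT in HSC2, a difference of -3.27, and the difference was -2.06 in SAS-L1, -3.46 in HSC3 and -2.85 in Ca9-22. TBC1D5, a regulator of the retromer, was 5.43 and 8.37 in HSC2 (-2.94), and MAT2B, the regulatory subunit of methionine adenosyltransferase, 7.51 and 10.29 (-2.78). QKI, an RNA-binding protein of splicing, was 6.19 and 8.80 (-2.61). CLVS1, CHSY1, WBP1L, ELOVL6, LDHB, COX20, TMX3 and SGMS2 differed by -2.68 to -2.13 in HSC2. Averaged over probe sets, the difference in HSC2 was -1.46 for PSIP1, -2.25 for TBC1D5, -1.80 for QKI, -1.20 for CHSY1, -1.01 for WBP1L, -0.90 for SGMS2 and -0.78 for TMX3. All 12 were lower in each other line too, and for 11 of them the fall over the other lines passed limma's adjusted threshold, TMX3 being the exception (adjusted p = 0.054).

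The genes highest with the mimic in HSC2 were less alike between lines. SOX2, a transcription factor of squamous and stem cells, was 7.85 with the mimic and 4.71 with miR-NT in HSC2, an 8.85-fold difference (3.15 on the log2 scale, and 1.46 averaged over its probe sets). AMTN, amelotin of the enamel organ, was 9.82 and 7.34 in HSC2 (2.48), and 9.76 and 7.50 in Ca9-22 (2.26), whereas SAS-L1 and HSC3 stayed at 4.27 to 4.39 on all arrays. TUBA1A, an alpha-tubulin, was 7.86 and 5.40 in HSC2 (2.46), with differences of 0.64 in SAS-L1, 2.26 in HSC3 and 1.76 in Ca9-22. NEDD9, a scaffold of focal adhesions, was 6.48 and 4.23 (2.25, and 0.75 averaged over its probe sets). GLRX, PLA2G4A, PPP1R3B, ID2 and SLC19A2 were higher by 1.66 to 2.08 in HSC2 and also higher in the other 3 lines, ID2 by 0.04 to 2.16. Averaged over probe sets, PPP1R3B differed by 0.75 and SLC19A2 by 1.15 in HSC2. Over the other 3 lines only SLC19A2, a thiamine transporter, among the 12 passed the adjusted threshold (limma adjusted p = 0.046).

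**Figure D3:**
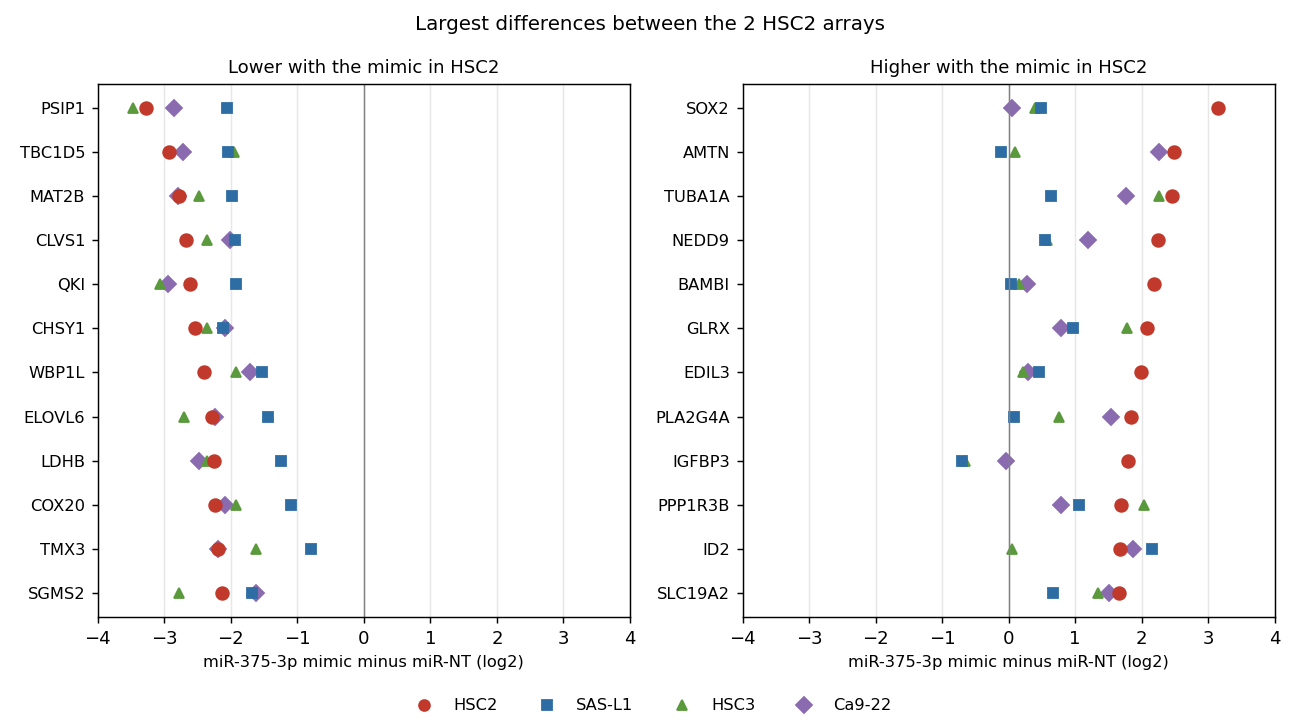
Difference between miR-375-3p mimic and miR-NT (x axis, log2) in each line for the 12 genes lowest (left) and the 12 highest (right) with the mimic in HSC2. All lines lie below 0 on the left, as for PSIP1 at -3.27 in HSC2, while SOX2 at 3.15 lies apart from the other lines on the right.

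HSC2 shared the direction of most genes called without it. In SAS-L1, HSC3 and Ca9-22 the mimic lowered 350 genes (1.92%) and raised 318 (1.74%) at a limma adjusted p under 0.05, with the line as a block. HSC2 was lower for 336 of the 350 (96%) and higher for 304 of the 318 (95.6%), where 46.1% and 53.9% of all genes were. Their median difference in HSC2 was -0.83 and 0.51, against -0.75 and 0.59 in SAS-L1, -0.94 and 0.69 in HSC3, and -1.01 and 0.65 in Ca9-22. The fit over the remaining lines called 179 genes lower and 51 higher without SAS-L1, and 0 without HSC3 or Ca9-22. After the median of each array was subtracted it called 456 lower and 264 higher. More than 2-fold differences in HSC2 were seen for 116 of the 350 lowered genes (33.1%) and 15 of the 318 raised genes (4.72%).

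Conversely, of the 213 genes more than 2-fold lower in HSC2, 190 (89.2%) were lower in each other line, 51 (23.9%) more than 2-fold lower in each, and 29 (13.6%) more than 2-fold lower in none. Of the 74 genes more than 2-fold higher in HSC2, 53 (71.6%) were higher in each other line, 4 (5.41%) more than 2-fold higher in each, and 35 (47.3%) more than 2-fold higher in none. The 4 were DNASE2, a lysosomal nuclease, GPNMB, a lysosomal glycoprotein, PHYH, of peroxisomal fatty acid oxidation, and RNFT1, with differences of 1.01, 1.44, 1.31 and 1.02 in HSC2. RNFT1 differed by 0.60 averaged over its probe sets.

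Of 19 target candidates that the study named in its text 18 were measured, all 18 lower with the mimic in HSC2 and 14 more than 2-fold lower, beside 46.1% and 1.17% of all genes. The study chose them on these arrays, HSC2 included, so that their direction is not independent evidence. Their median difference was -1.29 in HSC2, -0.87 in SAS-L1, -1.41 in HSC3 and -1.63 in Ca9-22. UBE2E2, a ubiquitin-conjugating enzyme, was 5.31 and 7.24 in HSC2, and PLEKHA3, a phosphoinositide-binding protein of the Golgi, 4.47 and 6.17. PRDX1, a peroxidase, was 10.20 and 11.56. TIMM8A, of mitochondrial protein import, was 5.91 and 6.03 in HSC2, with differences of -0.12 to -0.22 over the lines, and of -0.70 in HSC2 averaged over its probe sets.

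The response of HSC2 differed from that of the other lines in few genes by much. HSC2 was above each other line by more than 1 log2 unit for 13 genes (0.0713%) and below each for 11 (0.0603%). The same counts were 14 and 9 for SAS-L1, 50 and 38 for HSC3, and 23 and 17 for Ca9-22. With no such minimum, HSC2 was above each for 22.5% of genes and below each for 25.3%. The limma test of the difference in response, on the 4 differences, called 0 genes (0%) in either direction (smallest adjusted p = 0.53), with 335 above (1.84%) and 294 below (1.61%) at an unadjusted p under 0.05.

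SOX2 had the widest gap. Its difference of 3.15 in HSC2 stood beside 0.48 in SAS-L1, 0.39 in HSC3 and 0.04 in Ca9-22 (adjusted p of the difference 0.53). SOX2 was below the median of all probe sets in SAS-L1 and HSC3, at 3.77 to 4.49 on all arrays, and bright in Ca9-22, with 9.21 and 9.16, so that the HSC2 mimic array lay between them. All 3 of its probe sets had HSC2 above each other line, but the other 2 probe sets differed by less, the lowest being 0.57.

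BAMBI, a decoy receptor of TGF-beta and BMP signaling, was 6.91 with the mimic and 4.73 with miR-NT in HSC2, and 3.30 to 3.68 on all other arrays. IGFBP3, which binds insulin-like growth factors, was 7.66 and 5.87 in HSC2 (1.79), and its difference was -0.70 in SAS-L1, -0.65 in HSC3 and -0.04 in Ca9-22. EDIL3, a matrix protein that binds integrins, was 6.31 and 4.31 in HSC2 (2.00), with 0.21 to 0.45 in the other lines, but only 1 of its 5 probe sets had HSC2 above each other line. CNTNAP2, PGM2L1 and CYP27C1 were higher with the mimic by 1.26 to 1.33 in HSC2, while their differences lay between -0.11 and 0.12 in the other lines. Averaged over probe sets, CNTNAP2 differed by 0.73 in HSC2.

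KRT8, NT5E and PUDP fell in the other 3 lines (limma adjusted p = 0.044, 0.022 and 0.028) and differed less in HSC2. KRT8 was 4.49 and 4.76 in HSC2 (-0.26), below the median of all probe sets, against differences of -1.80 in SAS-L1, -2.32 in HSC3 and -3.67 in Ca9-22. NT5E, the ecto-enzyme CD73, was 8.98 and 9.95 in HSC2 (-0.97), and differed by -2.14 to -2.56 in the other lines, from similar miR-NT levels of 9.54 to 10.10. PUDP was 5.78 and 6.28 (-0.50), with -1.59 to -2.25 in the other lines.

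Of the genes with HSC2 below each other line, CXCL11 and CXCL10 are chemokines that interferon induces. CXCL11 was 4.13 with the mimic and 5.75 with miR-NT in HSC2 (-1.61), and 3.15 to 3.41 on all other arrays, with all 3 probe sets alike. CXCL10 was 5.39 and 6.91 in HSC2 (-1.51), and 3.96 to 4.43 on all other arrays. CLCA2, a regulator of chloride currents in stratified epithelia, was 5.40 and 7.33 in HSC2 (-1.93), with -0.58 to 0.69 elsewhere, and -1.12 in HSC2 averaged over its probe sets. CALB1, the gene of widest baseline gap, differed by -1.12 in HSC2 and by -0.03 to 0.06 in the lines where it was dim. TMEFF1 was lower in all lines, by 2.08 in HSC2 and 0.72 to 0.93 in the others. FZD8, NDRG4 and PPL differed by -0.93, -0.45 and -0.64 in HSC2 and by 0.08 to 1.49 in the other lines. The probe sets of NDRG4 ranged from -0.45 to 0.48 in HSC2 and those of PPL from -0.64 to 0.49, with averages of 0.01 and -0.18, so that the sign of these genes depends on the probe set. LY96, the co-receptor of TLR4, was 3.51 and 3.55 in HSC2, and rose in the other lines (adjusted p = 0.033), by 1.25 to 1.94.

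**Figure D4:**
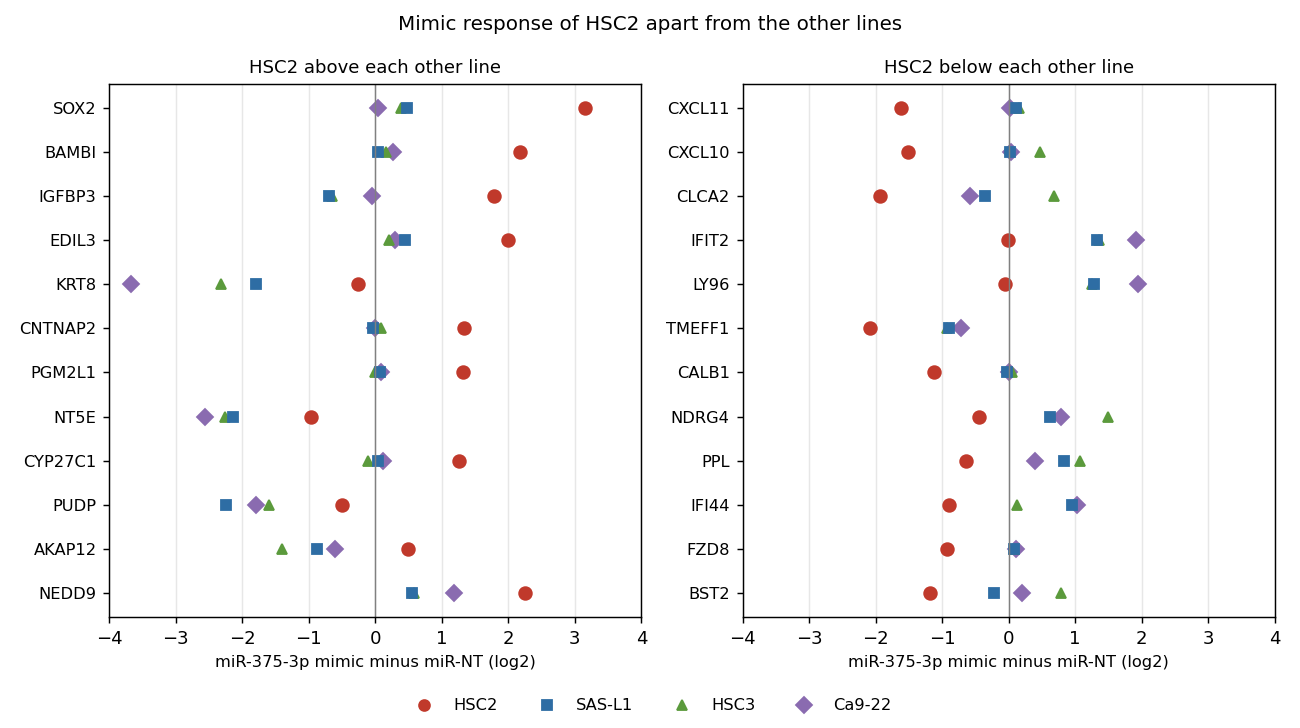
Difference between miR-375-3p mimic and miR-NT (x axis, log2) in each line for the 12 genes with HSC2 above each other line by the widest gap (left) and the 12 below (right). HSC2 lies at 3.15 for SOX2 and at -1.61 for CXCL11, outside the other 3 lines in each gene shown.

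Interferon-stimulated genes had a lower difference between mimic and miR-NT in HSC2 than in the other lines for much of the list. HSC2 was below each other line for 26 of 33 members and above each for 0, where 25.3% and 22.5% of all genes were. The median difference was -0.14 in HSC2, against 0.19 in SAS-L1, 0.41 in HSC3 and 0.22 in Ca9-22, and 0.02 over all genes in HSC2. The members lower with the mimic numbered 27 of 33 in HSC2, beside 46.1% of all genes, some of them close to 0, such as IFIT2 at -0.01. Higher in SAS-L1, HSC3 and Ca9-22 were 24, 29 and 26 members. Both lower in HSC2 and higher in all 3 other lines were 15 of the 33. The shares of all genes higher in each other line, or opposed in sign in this way, were not counted. The 15 therefore only describes the list. Of the 33 members 7 rose and 2 fell over the other 3 lines at a limma adjusted p under 0.05, beside 1.74% and 1.92% of all genes.

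IFIT2 was 7.02 with the mimic and 7.03 with miR-NT in HSC2, and its difference was 1.33 in SAS-L1, 1.35 in HSC3 and 1.91 in Ca9-22 (adjusted p over these lines 0.030). IFIT3 differed by -0.11 in HSC2 and by 0.76 to 1.01 in the others, and IFIT1 by -0.28 and by 0.49 to 0.93. ISG15 differed by -0.02 in HSC2 and by 0.74 to 0.94 in the others. On the mimic arrays IFIT3 was lower in HSC2 than in each other line, at 6.97 against 7.28 to 7.38. IFIT2 was level with the nearest of them, at 7.02 against 7.04 to 8.02. BST2 and IFI44 were lower with the mimic in HSC2, with differences of -1.19 and -0.89. SAMD9 fell in the other lines (adjusted p = 0.028) and was lowest with the mimic in HSC2 as well, at 6.0 and 8.07 (-2.07). The HSC2 miR-NT array enters both the level comparison and the difference, and whether its signal for these genes would recur in another culture was not tested.

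Genes of cholesterol synthesis and uptake had the same order of lines. HSC2 was below each other line for 14 of 18 members and above each for 0, beside 25.3% and 22.5% of all genes. The median difference was -0.09 in HSC2, 0.20 in SAS-L1, 0.45 in HSC3 and 0.23 in Ca9-22. In level, HSC2 was above the 3 other miR-NT arrays for 15 of 18 members, beside 29.5% of all genes. It was above the 3 other mimic arrays for 8 of 18, beside 22.6%. The HSC2 miR-NT array enters both the level and the difference here too. HMGCS1 differed by -0.69 in HSC2 and by 0.23 to 0.86 in the other lines, and INSIG1 by -0.55 and 0.08 to 1.23. MSMO1, a sterol demethylase, differed by -0.44 in HSC2 and by 0.41 to 1.02 in the others. PMVK, SREBF2, LSS and MYLIP were not below each other line. MYLIP, which marks the LDL receptor for degradation, was at 8.34 with the mimic and 6.98 with miR-NT in HSC2 (1.36), with 0.93 to 2.11 elsewhere.

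Lysosomal enzymes and membrane proteins were higher with the mimic in HSC2 for 33 of 36 members, beside 53.9% of all genes, with a median of 0.33, and medians of 0.29 in SAS-L1, 0.53 in HSC3 and 0.37 in Ca9-22. ER chaperones, which were apart in level, were higher with the mimic for 13 and lower for 6 of 19 members in HSC2, with a median of 0.06. Genes of mitosis and of DNA replication were lower in HSC2 for 23 of 30 and 24 of 32 members, beside 46.1% of all genes. Their medians were -0.15 and -0.18 in HSC2, against 0.10 and 0.10 in SAS-L1, -0.71 and -0.84 in HSC3, and -0.09 and -0.19 in Ca9-22.

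**Figure D5:**
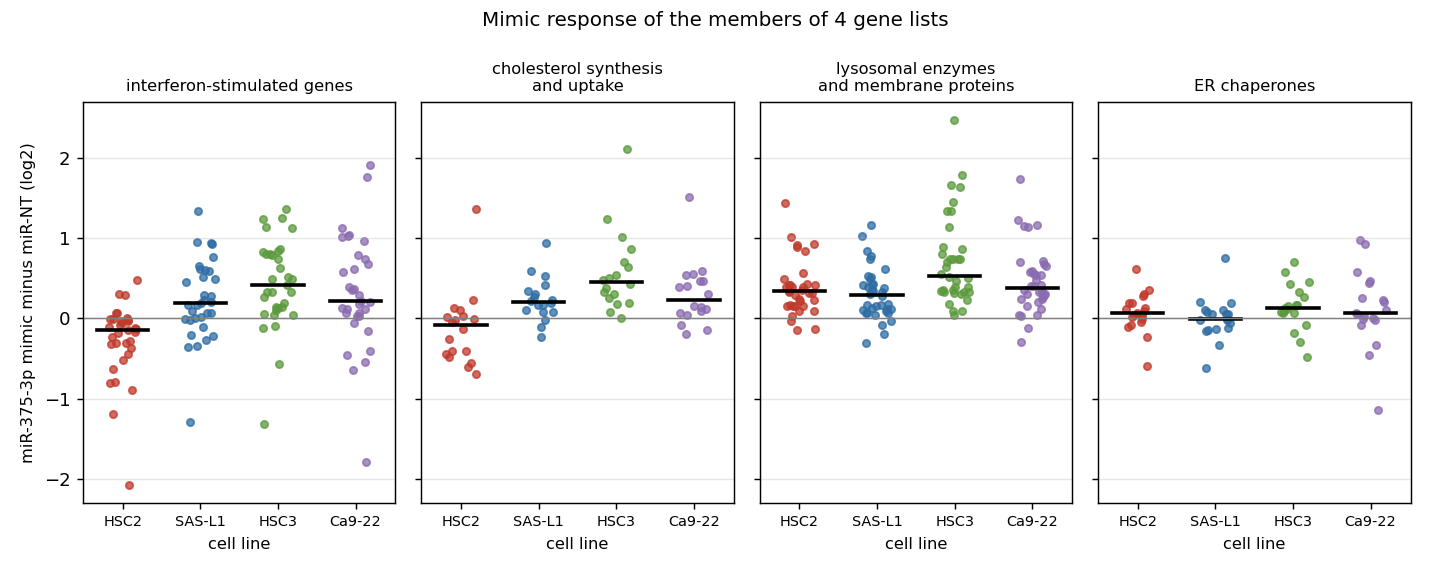
Difference between miR-375-3p mimic and miR-NT (y axis, log2) of every measured member of 4 gene lists in each line (x axis). Points are genes and bars are medians, which for interferon-stimulated genes lie at -0.14 in HSC2 and at 0.19 to 0.41 in the other lines.

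The genes called in the other 3 lines that HSC2 did not share numbered 14 in each direction. Among the 14 raised there and not higher in HSC2 were IFIT1, IFIT2, IFIT3, ISG15, IFIH1 and LY96, and STARD4, a sterol transporter, at -0.26 in HSC2 against 0.47 to 0.56 in the others. Among the 14 lowered there and not lower in HSC2 were CCND1, cyclin D1 of the G1 phase, and FSCN1, which bundles actin. CCND1 differed by 0.07 in HSC2 and by -0.47 to -0.84 in the other lines (limma adjusted p over those lines 0.044). FSCN1 differed by 0.05 in HSC2 and by -0.55 to -1.27 in the others (adjusted p = 0.048). The HSC2 differences of IFIH1, CCND1 and FSCN1 were near 0 and changed sign under an alternative, IFIH1 and CCND1 to 0.10 and -0.04 averaged over probe sets and FSCN1 to -0.01 with array medians subtracted. In none of these did the difference between HSC2 and the other lines pass the adjusted threshold, the lowest adjusted p of the difference over all genes being 0.53.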

How the data were processed

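Of 4 OSCC lines, 8 Affymetrix U219 arrays of total RNA were used, 1 per line and mimic, and groups followed the line and mimic in the labels. The labels name a GeneAtlas 3′ IVT Express kit and the methods a GeneChip 3′ IVT PLUS kit. The deposited values were log2 signals that the authors computed by RMA, which corrects background, normalizes arrays to 1 distribution and summarizes probe sets; scanner files were not used here. Of 49386 probe sets 45259 had 1 gene symbol, 45178 of them matched to RefSeq (GRCh38.p14), and 1327 with several symbols or 2800 with none entered no gene. Each of 18239 genes took its brightest probe set over all arrays.

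All tests were fits of limma 3.58.1 under R 4.3.3 (lmFit and eBayes, two-sided, Benjamini-Hochberg over all genes, threshold 0.05). HSC2 was set against the other lines over 4 line means, and its response over 4 differences within lines, which pair the arrays by line. Both fits assume that HSC2 varies like the other 3 lines. Named genes were the 12 in each direction with the largest gap between HSC2 and the nearest other array or line, the 12 largest differences within HSC2 among genes brighter than 4.98 on an HSC2 array, and members of the gene lists; FSCN1, CCND1, STARD4, DNASE2, GPNMB, PHYH and RNFT1 were chosen after their values were seen. The members and lists were chosen with earlier results of these data known. Alternatives were other normalizations, probe set rules, blocks, fold thresholds, a filter on dim genes, and leaving out a line. RefSeq promoters and miRNA sequences were searched in Python 3.11. Precision is limited by 1 array per line and mimic, and single values move with the probe set rule.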

Additional observations from a re-analysis of the deposited data

Results flagged for a closer look

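With the mimic, 10 genes of those with the widest gap in response moved in HSC2 against the sign of all 3 other lines. IGFBP3 differed by 1.79 in HSC2 and by -0.70 to -0.04 in the others, and AKAP12, which was below the median of all probe sets in HSC2, by 0.49 and -1.41 to -0.60. In the opposite direction, the difference was -1.61 for CXCL11, -1.51 for CXCL10, -0.93 for FZD8, -0.89 for IFI44, -0.64 for PPL, -0.45 for NDRG4, -0.05 for LY96 and -0.01 for IFIT2 in HSC2, and above 0 in each other line. The limma test of the difference between HSC2 and the other lines had an adjusted p of 0.53 for CXCL11 and 1 for the other 9. LY96 and IFIT2 differed by so little in HSC2 that their sign carries no weight. In the other lines CXCL11 (0.02 to 0.16) and FZD8 (0.08 to 0.10) hardly differed, so that their opposite sign there carries no weight either. CXCL10 (0.01 to 0.47) and IGFBP3 likewise came close to 0 in at least 1 other line. The sign in HSC2 also differed between the probe sets of NDRG4 (-0.45 to 0.48), PPL (-0.64 to 0.49) and IFI44 (-0.89 to 0.06).

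The median response was -0.14 for interferon-stimulated genes and -0.09 for genes of cholesterol synthesis and uptake in HSC2, against 0.19 to 0.41 and 0.20 to 0.45 in the other lines. The difference between these medians was not tested, and each side of HSC2 is 1 array.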

How the results depend on the processing

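The counts of genes apart in level and in response, by limma on the 4 lines, were 0 in both directions under the tried normalizations, probe set rules, filter on dim genes and left-out lines, except that an intensity trend called 17 genes above. The random block for the line called 22 above and 8 below, and 8 arrays taken as independent 229 and 160. Genes more than 2-fold lower and higher with the mimic in HSC2 numbered 130 and 44 with averaged probe sets, 525 and 149 when all probe sets were counted, and 654 and 607 at a fold threshold of 1.5. Genes more than 2-fold apart from the 6 other arrays numbered 173 above and 92 below over all probe sets, and 117 to 188 above and 63 to 97 below with 1 other line left out. Of the genes called lower and higher in the 3 other lines, HSC2 shared the direction of 218 and 201 with averaged probe sets, of 0 to 179 and 0 to 49 with a line left out, where 0 genes were called without HSC3 or without Ca9-22, and of 0 and 0 without the block for the line, where 0 were called. All fits with a line left out kept the same number of lines, and their counts differed with the line that was left out. The cause of this was not tested. Without the block, the spread between lines entered the fit by construction. Each count of list members kept within 1.5 times of its value under the alternatives for them, which were chosen after seeing the data.

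The level difference of 61 named genes and the difference in response of 43 kept their direction under the alternatives run for them. Of 63 named differences between mimic and miR-NT in HSC2, those of NDRG4 (0.013), CCND1 (-0.035) and IFIH1 (0.10) turned averaged over probe sets, and that of FSCN1 (-0.0076) with array medians subtracted. Averaged over probe sets, the difference between mimic and miR-NT in HSC2 was -1.46 for PSIP1, 1.46 for SOX2 and 0.48 for EDIL3, and the cause was not tested. The fits of the mimic response pair the arrays by line, and each line and mimic had 1 array, so that no other pairing could be made. The deposited values hold no background or detection call, so that dim genes cannot be told from absent ones.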
